A study of Mus musculus with 6 samples.

Results

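Enzymes and transporters of glycolysis and glycogen metabolism were followed in cochlear tissue of *Cmah*-null and WT mice. The set held 37 genes, and a gene was taken where its symbol equalled the gene symbol that the deposited normalized table gives for a probe, with the brightest probe kept for a gene with several. Probes were found for 34 of the 37, against 18138 symbols and 25697 probes in the whole table. *Hk2*, *Gpi1* and *Ldhb* matched no probe by symbol and were not analysed here. The arrays were Illumina MouseRef-8 v2 BeadChips, on which a probe reads out 1 stretch of an mRNA. Each of the 6 arrays held total RNA of 1 sample, with 3 samples from WT mice and 3 from *Cmah*-null mice, all 12 months old and of strain C57BL/6 in the sample records and C57BL/6J in the study's methods, with no treatment named. *Cmah* encodes the enzyme that makes the sialic acid Neu5Gc from Neu5Ac, and the knockout allele is named tm1Ykoz in the study's methods, with no cell type or promoter given that would confine it. The study's methods give 3 mice per group, while the sample records give only a replicate number, so p-values measure the spread between these samples.

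Glycolysis splits glucose into pyruvate in the cytosol and yields ATP with or without oxygen. Glucose enters through transporters of the Slc2a family, is phosphorylated by hexokinase, committed by phosphofructokinase, cleaved by aldolase and carried on to pyruvate by enolase and pyruvate kinase, after which lactate dehydrogenase can turn pyruvate to lactate for export. Glycogen is the stored form of glucose, built by glycogen synthase and released by glycogen phosphorylase. Many of these steps have tissue isoforms encoded by separate genes: skeletal muscle uses *Pfkm*, *Pgam2*, *Eno3* and *Pygm*, neurons and glia use *Eno2*, *Aldoc* and *Pygb*, and most cells use *Pfkl*, *Aldoa*, *Pgam1* and *Eno1*. In the cochlea, *Slc2a1* serves the blood vessels of the stria vascularis, the tissue that keeps up the electrical potential of the inner ear fluid. The members were therefore read in 3 classes, 12 muscle isoforms, 6 neural isoforms and 19 ubiquitous members, with 11, 6 and 17 found on the array. The neural and ubiquitous names describe where a gene is best known, since *Pfkp*, *Hk1* and *Aldoa*, among others, are made in several tissues.

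The arrays detected between 13873 and 15223 of the 25697 probes each (detection p under 0.05). No probe reached an adjusted p under 0.05 (limma, smallest adjusted p = 0.25), while 2199 probes had an unadjusted p under 0.05. The probe for *Cmah* lay near background, with log2 signals of 7.27, 7.28 and 7.87 in WT and 7.95, 7.98 and 7.27 in *Cmah*-null samples, and so did not check the labels. *Cmah*-null replicates 1 and 2 were the closest pair of arrays, with an SD of their log2 difference of 0.13 against 0.31 to 0.64 for the other pairs. They were kept as separate samples, with their mean as an alternative setting. Were they not independent, the *Cmah*-null spread and the p-values would come out too small. The tissue label was set against marker genes. The skeletal muscle genes *Myl1*, *Atp2a1* and *Acta1* had log2 signals between 15.31 and 16.04 on every array, and 17 of 18 muscle markers were detected on all 6 arrays. The hair cell genes *Myo7a*, *Otof* and *Gfi1* had log2 signals between 7.75 and 8.73, and 4 of 9 hair cell markers found were detected on all 6 arrays. The genes of cochlear support cells and stria *Gjb6*, *Gjb2* and *Coch* had log2 signals between 10.40 and 13.39, and 8 of the 11 found in that list were detected on all 6 arrays. In bulk samples such as these, fewer cells of a type and less RNA per cell cannot be told apart.

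Levels below are quantile-normalized log2 signals, listed for replicates 1, 2 and 3 in that order, and a change is the *Cmah*-null mean minus the WT mean on the log2 scale (n = 3 per genotype), with its standard error (SE) from limma. Of the 34 genes, 24 were detected on all 6 arrays, 4 on some and 6 on none. The 6 undetected probes had log2 signals between 6.86 and 7.49. The change lay below 0 for 20 of the 24 and above 0 for 4, with a median of -0.29 against 0.03 over the 12410 probes detected on all 6 arrays. That count depended on the scaling. With each array scaled to the same median in place of quantile normalization, the median of the detected probes moved to 0.30, and 10 of the 24 lay below 0 and 14 above. Taken relative to the median of the detected probes, 20 of the 24 lay below it under quantile normalization and 18 under median scaling.

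A gene was called where its change reached 1.5-fold with an unadjusted p under 0.05, the thresholds of the study, with limma as the test here. The calls are therefore not those of the study. Its pathway table also lists *Pfkp*, *Pfkm*, *Tpi1* and *Eno3* among differentially expressed genes, and the probes kept for these were not called here. Among the 34 genes, 2 were called lower in *Cmah*-null samples, *Fbp2* and *Pgm2*, against 1.41% of all probes, and 1 was called higher, *Slc2a1*, against 1.3%. None had an adjusted p under 0.05, against 0% of all probes. With 24 detected genes the same 2 and 1 stood against 2.64% and 2.51% of the probes detected on all 6 arrays, shares that would give 0.63 and 0.6 genes. The 3 WT and 3 *Cmah*-null values did not overlap for 4 genes that were lower in *Cmah*-null samples, *Fbp2*, *Pfkp*, *Tpi1* and *Ugp2*, against 7.33% of all probes and 7.86% of the detected ones. They did not overlap for 3 genes that were higher, *Fbp1*, *Slc2a1* and *Slc16a1*, against 9.11% of all probes, and of these 3 only *Slc2a1* was detected on every array, where the share over detected probes was 11.5%. At the background shares of all probes 2.5 and 3.1 of the 34 genes would not overlap, beside the 4 and 3 found, so these counts say little about the members. Under median scaling the calls were 0 lower, against 0.307% of all probes, and 2 higher, *Eno2* and *Slc2a1*, against 9.37%. With neqc normalization they were 1 lower, *Fbp2*, against 2.72%, and 2 higher, *Fbp1* and *Slc2a1*, against 3.05%.

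**Figure D1:**
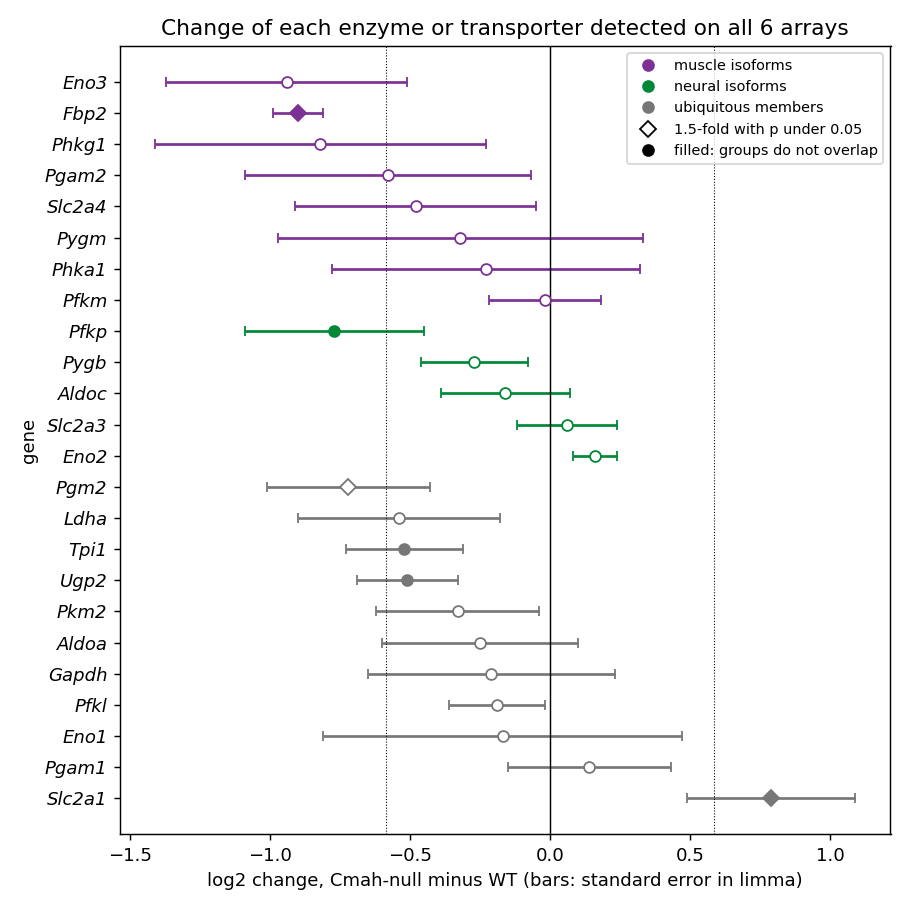
Change in log2 signal between *Cmah*-null and WT samples (x axis) of each of the 24 genes detected on all 6 arrays (y axis), coloured by class. Points are the difference of means of 3 and 3 arrays, bars are the limma standard error, and dotted lines mark 1.5-fold. All 8 muscle isoforms lie below 0, *Fbp2* with the shortest bar of the 3 lowest, and *Slc2a1* stands alone on the right.

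The median change of each class is given as a description, with no test between classes. Over genes detected on all 6 arrays the median was -0.53 for 8 muscle isoforms, -0.25 for 11 ubiquitous members and -0.16 for 5 neural isoforms. Over all genes found, detected or not, it was -0.32, -0.17 and -0.21 in the same order. This last median for the muscle isoforms was -0.85 without WT replicate 3, -0.78 without *Cmah*-null replicate 3 and -0.05 without *Cmah*-null replicate 1, so single arrays set its size. The order of the classes was not stable. Without *Cmah*-null replicate 1 the ubiquitous members stood at -0.17 and the neural isoforms at -0.27, with *Cmah*-null replicates 1 and 2 averaged the medians were -0.07, -0.17 and -0.31, and with a block for bead number they were -0.27, -0.26 and -0.34, for muscle, ubiquitous and neural genes. All 8 detected muscle isoforms lay below 0, with changes from -0.94 to -0.02. Of the neural isoforms 3 lay below and 2 above, from -0.77 to 0.16, and of the ubiquitous members 9 lay below and 2 above, from -0.72 to 0.79. Beside the neural isoforms, all 7 detected neuron markers lay below 0, with a median change of -0.23. Their array medians lay between 10.48 and 11.22 in WT and between 9.92 and 10.32 in *Cmah*-null samples. The 3 brightest, *Stmn2* (-0.13, SE 0.35), *Nefm* (-0.62, SE 0.71) and *Syt1* (-0.19, SE 0.25), overlapped between groups. Only *Prph* (-1.37, SE 0.36), named after its value was seen, was called lower, against 2.64% of the probes detected on all 6 arrays. All 7 myelin markers also lay below 0, with array medians from 11.25 to 13.77 in WT and from 11.41 to 12.27 in *Cmah*-null samples. The range of the 3 WT values was wider than the change in 7 of 7 neuron and 7 of 7 myelin markers. WT replicate 1 was the highest WT array in 6 and 7 of them. Of the detected hair cell markers 4 of 4 lay above 0, and of those of cochlear support and stria 6 lay above and 2 below. The part of neurons and myelin in the values of the neural isoforms was not tested.

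Glucose transport showed the only called rise. *Slc2a1* (GLUT1, chromosome 4), the glucose transporter of blood-tissue barriers and red cells, had log2 signals of 11.06, 11.05 and 11.47 in WT and 11.68, 11.63 and 12.65 in *Cmah*-null samples. Every *Cmah*-null value was above every WT value, and replicate 3 of the *Cmah*-null group was the highest by a wide margin. The change was 0.79 (SE 0.30), or 1.73-fold, with an adjusted p of 0.574 (limma). Without *Cmah*-null replicate 3 it was 0.46, under 1.5-fold, and without WT replicate 1 or WT replicate 2 it was 0.72 and no longer called. Under median scaling it was 1.30, against 0.30 for the median of the detected probes. *Slc2a3* (GLUT3), the transporter of neurons, had log2 signals of 11.67, 11.55 and 11.36 in WT and 11.71, 11.81 and 11.24 in *Cmah*-null samples, and the groups overlapped with a change of 0.06 (SE 0.18). *Slc2a4* (GLUT4), which insulin moves to the surface of muscle and fat cells, had log2 signals of 10.13, 9.44 and 8.55 in WT against 8.58, 8.75 and 9.36, a change of -0.48 (SE 0.43) with overlapping groups. The 3 WT values of *Slc2a4* spread over more than the change itself.

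*Hk1*, the hexokinase of brain and red cells, was detected on 3 WT arrays but on 1 *Cmah*-null array. Its log2 signals were 8.47, 7.83 and 7.69 in WT and 7.52, 7.72 and 7.33 in *Cmah*-null samples. WT replicate 1 was the high value, the groups overlapped, and the change was -0.47 (SE 0.23). The values lay close to background, and the size depended on the normalization, with a change of -1.10 under neqc.

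Phosphofructokinase, which sets the pace of glycolysis, is a tetramer of muscle, liver and platelet subunits, and all 3 genes were detected on every array. *Pfkp*, the platelet subunit, which is also made in brain, had log2 signals of 11.28, 10.33 and 10.27 in WT and 9.78, 10.24 and 9.55 in *Cmah*-null samples. The groups did not overlap, though WT replicate 3 and *Cmah*-null replicate 2 lay close together. Its change was -0.77 (SE 0.32), with an unadjusted p of 0.0564 and an adjusted p of 0.595 in limma, so it was not called. A second *Pfkp* probe, detected on 5 arrays, changed by -0.51 with overlapping groups, and the dimmest, detected on 3 arrays, by 0.21. *Pfkl*, the liver subunit, changed by -0.19 (SE 0.17), with WT replicate 1 at 12.74 and the other 5 arrays between 12.14 and 12.24.

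*Pfkm*, the muscle subunit, differed between its 3 probes, all detected on every array. The brightest had log2 signals of 14.74, 14.56 and 14.07 in WT and 14.30, 14.35 and 14.65 in *Cmah*-null samples, a change of -0.02 (SE 0.20). The second changed by -0.24 (SE 0.24) with overlapping groups. The dimmest had 9.60, 8.47 and 8.11 in WT and 7.67, 7.96 and 7.95 in *Cmah*-null samples, a change of -0.87 (SE 0.38) without overlap. The statement on *Pfkm* therefore rests on which probe is read. *Pfkfb1* and *Pfkfb3*, whose enzymes make the sugar phosphate that stimulates phosphofructokinase, were detected on no array and get no fold change.

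The steps from aldolase to glyceraldehyde phosphate were carried by bright probes. *Tpi1*, triose phosphate isomerase, had log2 signals of 14.55, 14.64 and 14.17 in WT and 14.09, 14.15 and 13.56 in *Cmah*-null samples. The groups did not overlap, with WT replicate 3 just above the highest *Cmah*-null value. The change was -0.52 (SE 0.21), or 1.44-fold, under the fold limit, and all 3 *Tpi1* probes were lower without overlap, though the dimmest was detected on 1 array only. The second brightest changed by -0.69 (SE 0.28) and was called. *Aldoa*, the aldolase of muscle and most other cells, had log2 signals of 15.31, 14.68 and 13.87 in WT and 14.37, 14.45 and 14.29 in *Cmah*-null samples. The WT values reached both above and below all *Cmah*-null values, and the change was -0.25 (SE 0.35). *Aldoc*, the aldolase of brain, changed by -0.16 (SE 0.23), and *Cmah*-null replicate 3 at 13.44 was the single array apart from a band between 14.07 and 14.31.

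*Gapdh*, whose enzyme takes the oxidative step and whose mRNA is often used to normalize qPCR, had log2 signals of 14.70, 14.20 and 13.08 in WT and 13.91, 14.10 and 13.36 in *Cmah*-null samples. The highest and the lowest of the 6 values were both WT, and the change was -0.21 (SE 0.44). The *Pgk1* probe was detected on no array.

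**Figure D2:**
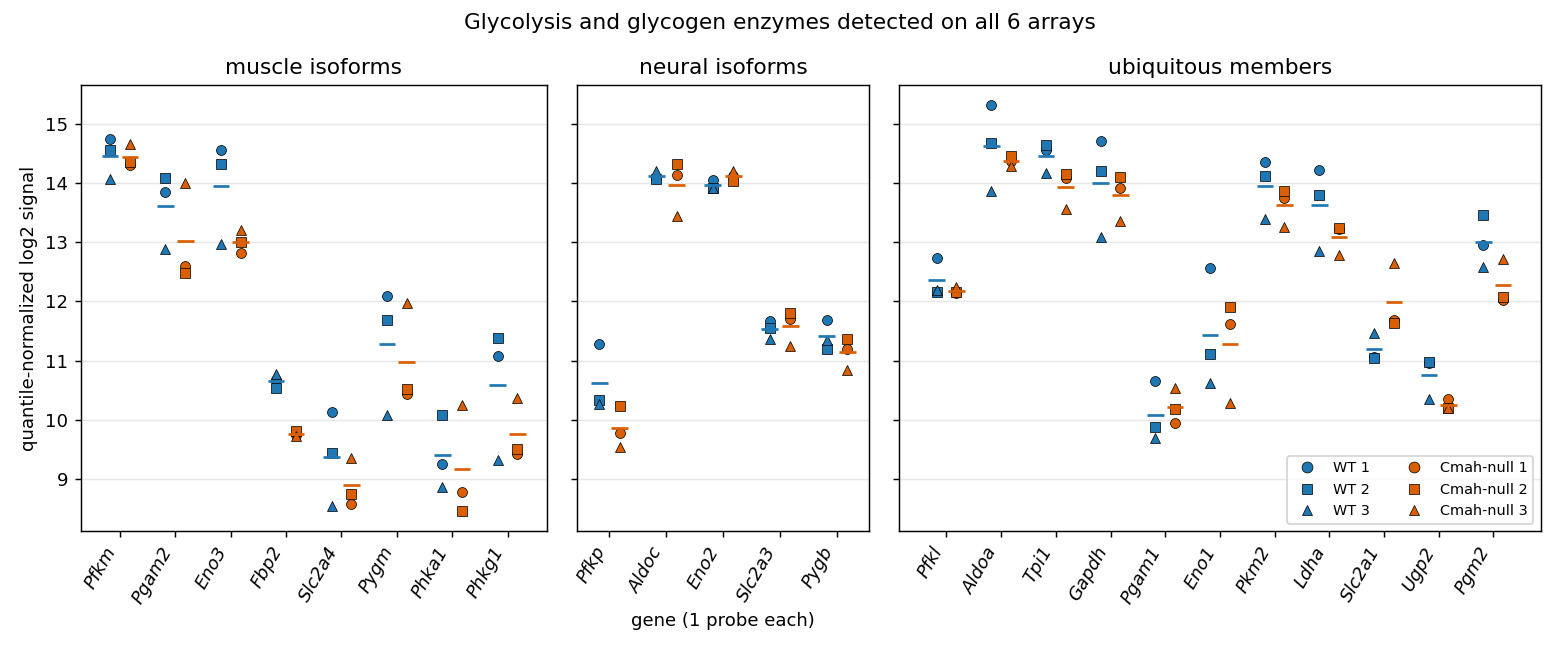
Quantile-normalized log2 signal (y axis) of the 24 genes detected on all 6 arrays (x axis, 1 probe each), in panels by class. Each marker is 1 array, with circle, square and triangle for replicates 1, 2 and 3, blue for WT and orange for *Cmah*-null, and short lines are group means of 3 arrays. The WT triangle is the lowest WT marker in 7 of the 8 muscle isoforms, and *Fbp2* is the exception. It is also the lowest WT marker in 9 of 11 ubiquitous members and 2 of 5 neural isoforms.

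Among the last steps to pyruvate and lactate, *Eno3*, the muscle enolase, had log2 signals of 14.56, 14.31 and 12.96 in WT and 12.81, 13.00 and 13.20 in *Cmah*-null samples. WT replicates 1 and 2 were high, and WT replicate 3 lay among the *Cmah*-null values. The change was -0.94 (SE 0.43), the lowest of all 24 detected members, with an adjusted p of 0.62 in limma, and it was not called. *Eno2*, neuron-specific enolase, had log2 signals of 14.05, 13.91 and 13.91 in WT and 14.11, 14.03 and 14.20 in *Cmah*-null samples, a change of 0.16 (SE 0.08). WT replicate 1 and *Cmah*-null replicate 2 overlapped narrowly, and the SD was 0.08 in WT and 0.09 in *Cmah*-null samples. *Eno1*, the enolase of most cells, spread widely, from 10.63 to 12.57 in WT and from 10.29 to 11.91 in *Cmah*-null samples, with a change of -0.17 (SE 0.64).

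*Pgam2*, the muscle phosphoglycerate mutase, had log2 signals of 13.84, 14.09 and 12.88 in WT and 12.60, 12.48 and 13.99 in *Cmah*-null samples. The third replicate of each group went the other way, low in WT and high in *Cmah*-null, and the change was -0.58 (SE 0.51). *Pgam1*, the form of most other tissues, changed by 0.14 (SE 0.29). *Pkm2*, the array's name for pyruvate kinase M (*Pkm* in the current reference), ran from 13.39 to 14.36 in WT and from 13.26 to 13.86 in *Cmah*-null samples, a change of -0.33 (SE 0.29). *Ldha*, the lactate dehydrogenase subunit of muscle and hypoxic cells, had log2 signals of 14.22, 13.79 and 12.85 in WT and 13.22, 13.24 and 12.78 in *Cmah*-null samples, a change of -0.54 (SE 0.36). In *Ldha* too WT replicate 3 lay below *Cmah*-null replicates 1 and 2. The lactate exporter *Slc16a3* (MCT4) was detected on 3 WT arrays and 1 *Cmah*-null array with all values between 7.48 and 7.58, and *Slc16a1* (MCT1) was detected on none.

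*Fbp2* was the member with the steadiest difference. Its enzyme, muscle fructose bisphosphatase, undoes the phosphofructokinase step and lets muscle rebuild glycogen from lactate. *Fbp2* (chromosome 13) had log2 signals of 10.67, 10.54 and 10.77 in WT and 9.74, 9.82 and 9.72 in *Cmah*-null samples. The groups lay far apart and each was tight, with means of 10.66 ± 0.11 (SD, n = 3) and 9.76 ± 0.05 (SD, n = 3). The change was -0.90 (SE 0.09), or 1.86-fold lower, with an unadjusted p of 5.73e-05 and an adjusted p of 0.25 in limma. It was called in 13 of 14 other settings, with changes from -1.02 to -0.85 in these. The exception was median scaling, where the change was -0.49 (limma, unadjusted p = 0.0717), or -0.79 relative to the median of the detected probes. *Fbp1*, the liver and kidney form, was detected on 1 WT and 3 *Cmah*-null arrays. Its log2 signals of 7.43, 7.45 and 7.55 in WT and 7.79, 7.72 and 7.83 in *Cmah*-null samples did not overlap, a change of 0.31 (SE 0.08), or 1.24-fold, close to background.

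Glycogen breakdown starts with phosphorylase, which phosphorylase kinase switches on. *Pygm*, the muscle phosphorylase, had log2 signals of 12.09, 11.68 and 10.09 in WT and 10.43, 10.52 and 11.97 in *Cmah*-null samples, a change of -0.32 (SE 0.65). *Phkg1*, the catalytic subunit of phosphorylase kinase in muscle, had log2 signals of 11.08, 11.38 and 9.33 in WT and 9.43, 9.51 and 10.37 in *Cmah*-null samples, a change of -0.82 (SE 0.59). *Phka1*, its muscle regulatory subunit, had log2 signals of 9.26, 10.08 and 8.86 in WT and 8.78, 8.47 and 10.25 in *Cmah*-null samples, a change of -0.23 (SE 0.55). In all 3 genes WT replicate 3 was the lowest WT value and *Cmah*-null replicate 3 the highest of its group. The standard error exceeded the change for *Pygm* and *Phka1*. *Pygb*, the brain phosphorylase, changed by -0.27 (SE 0.19), with WT values from 11.19 to 11.69 and *Cmah*-null values from 10.85 to 11.37.

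Sugar phosphates enter and leave glycogen through phosphoglucomutase and UDP-glucose. The probe the array names *Pgm2* belongs to the gene that the current reference calls *Pgm1*, the main phosphoglucomutase, on chromosome 4. Its log2 signals were 12.95, 13.46 and 12.58 in WT and 12.02, 12.08 and 12.72 in *Cmah*-null samples. *Cmah*-null replicate 3 exceeded WT replicate 3, so the groups overlapped. The change was -0.72 (SE 0.29), or 1.65-fold lower, with an unadjusted p of 0.047 and an adjusted p of 0.58 in limma, and the call was lost in 9 of 14 other settings. The probe the array names *Pgm1*, now *Pgm2*, was detected on no array. *Ugp2*, which makes UDP-glucose for glycogen and for sugar donors, had log2 signals of 10.96, 10.97 and 10.36 in WT and 10.35, 10.20 and 10.20 in *Cmah*-null samples. WT replicate 3 lay only just above the *Cmah*-null values, and the change was -0.51 (SE 0.18), or 1.43-fold, with an adjusted p of 0.557 in limma. *Gbe1*, the branching enzyme, was detected on no array, and *Gys1*, the muscle glycogen synthase, on 1 WT array, so neither gets a fold change.

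The muscle isoforms varied together across arrays, and not with genotype alone. WT replicate 3 had the lowest WT value in 7 of the 8 detected muscle isoforms, and *Cmah*-null replicate 3 the highest *Cmah*-null value in 7 of 8, with *Fbp2* the exception each time. The median of the 8 log2 signals was 11.58, 11.53 and 10.43 in WT and 10.09, 10.17 and 11.17 in *Cmah*-null samples. The range of the 3 WT values was wider than the change in 7 of 8 muscle isoforms, and in 19 of all 24 detected members. The low WT replicate 3 was not particular to muscle isoforms. It was the lowest WT array in 9 of 11 ubiquitous members and 2 of 5 neural isoforms. The same held for 7 of 7 myelin, 5 of 6 bone and cartilage and 5 of 6 brown fat markers. It held for 0 of 6 fat and 0 of 8 cochlear support and stria markers. *Cmah*-null replicate 3 was the highest of its group in 4 of 11 ubiquitous members and 1 of 5 neural isoforms. Skeletal muscle markers moved on the same arrays: WT replicate 3 was the lowest WT array for 16 of the 17 markers detected on all arrays, and *Cmah*-null replicate 3 the highest *Cmah*-null array for 13. Their median log2 signal was 14.34, 14.26 and 13.16 in WT and 13.37, 13.35 and 13.81 in *Cmah*-null samples, and their changes had a median of -0.51, with 16 of 17 below 0. The 3 brightest, *Myl1* (0.06, SE 0.21), *Acta1* (-0.14, SE 0.12) and *Atp2a1* (-0.14, SE 0.14), overlapped between groups. The myoglobin gene *Mb* (-0.87, SE 0.17) and the titin gene *Ttn* (-0.84, SE 0.33), named after their values were seen, were the 2 called. Among probes detected on all 6 arrays 2.64% were called lower. *Mb*, like *Fbp2*, did not overlap, at 14.73, 14.58 and 14.26 in WT and 13.79, 13.80 and 13.37 in *Cmah*-null samples. Brown fat markers separated the genotypes further, with medians of 13.03, 12.49 and 12.01 in WT and 10.99, 11.08 and 9.94 in *Cmah*-null samples. These medians cover the 6 of 9 markers detected on all 6 arrays, all 6 below 0. Of the 6, 4 were called lower, against 2.64% of the probes detected on all 6 arrays. *Dio2* and *Prdm16* were detected on no array. *Elovl3* (-0.64, SE 0.31), detected on 3 WT arrays and 1 *Cmah*-null array, overlapped between groups. Of the 3 brightest, *Cox8b* (-1.44, SE 0.51) and *Cidea* (-2.01, SE 0.42) were called and *Cpt1b* (-0.69, SE 0.46) overlapped between groups. *Ucp1* (-2.11, SE 0.52) and *Ppargc1a* (-0.65, SE 0.26) were also called and *Otop1* (-0.70, SE 0.39) overlapped, all named after their values were seen. The list is not exclusive to brown fat, since the study's pathway table places *Cox8b* under cardiac muscle contraction. *Cpt1b*, like most muscle isoforms, was highest in replicate 3 among *Cmah*-null arrays, at 12.85 beside 11.25 and 11.26. Over the 6 the median change was -1.07. Their part and that of muscle in the members' changes was not tested.

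**Figure D3:**
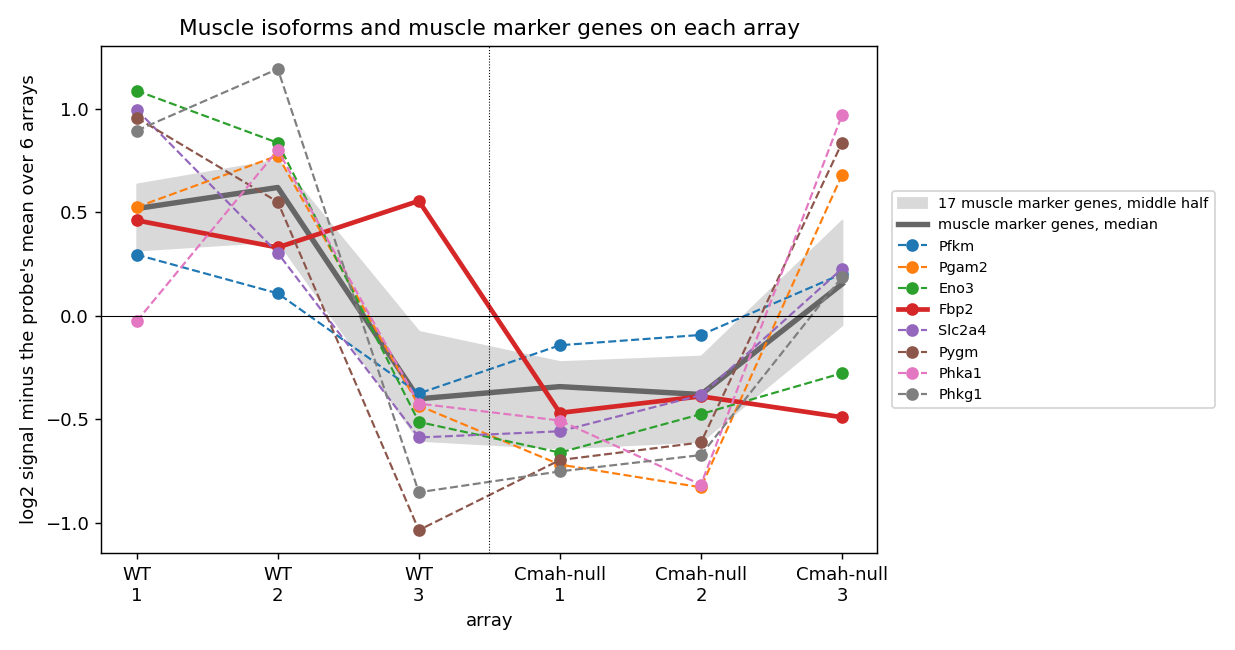
Log2 signal of the 8 detected muscle isoforms on each array, minus the mean of the same probe over 6 arrays (y axis), against array (x axis). Dashed lines are 7 isoforms and the solid red line is *Fbp2*; the grey line and band are the median and the central part, from the lower to the upper quartile, of 17 muscle marker genes. The dashed lines and the grey line drop at WT replicate 3 and rise at *Cmah*-null replicate 3, while *Fbp2* stays high on all WT and low on all *Cmah*-null arrays.

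The arrays also came in sets by the number of beads read per probe, with medians of 34, 32 and 32 for WT replicate 1 and the first pair of *Cmah*-null arrays and of 38 to 39 for the remaining 3. Within the set with fewer beads all 8 muscle isoforms were lower in *Cmah*-null samples, with a median change of -1.38. Within the set with more beads 2 of the 8 were lower, *Eno3* and *Fbp2*, and the median change was 0.35. *Fbp2* differed by -0.89 and -0.93 in the 2 sets, the muscle marker *Mb* by -0.93 and -1.05, and *Slc2a1* by 0.59 and 1.38. *Pgm2* differed by -0.90 and -0.30, *Pfkp* by -1.27 and -0.75, and *Tpi1* by -0.43 and -0.85. Each set holds only 1 sample of one genotype, so these are values with no test. What these sets of arrays stand for is not given in the sources used here.

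*Eno3*, *Pgam2*, *Phkg1* and *Pygm* followed most muscle markers across arrays, and *Fbp2* did not. Promoter sequence is shown for these 5 genes, chosen after their values were seen. It came from RefSeq (GRCm38.p6), as the 250 bases before the annotated start, and 32 of the 34 members matched by gene ID. E-boxes (CANNTG, a palindrome counted on both strands), to which muscle regulatory factors of the MyoD family bind, are in capitals.
Eno3 promoter, chr11:70656926-70657175, plus strand: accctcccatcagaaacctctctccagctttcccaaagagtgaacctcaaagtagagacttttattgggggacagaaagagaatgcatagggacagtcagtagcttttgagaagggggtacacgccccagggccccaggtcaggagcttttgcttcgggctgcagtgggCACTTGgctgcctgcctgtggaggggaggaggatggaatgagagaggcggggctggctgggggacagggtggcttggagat
Pgam2 promoter, chr11:5803797-5804046, minus strand: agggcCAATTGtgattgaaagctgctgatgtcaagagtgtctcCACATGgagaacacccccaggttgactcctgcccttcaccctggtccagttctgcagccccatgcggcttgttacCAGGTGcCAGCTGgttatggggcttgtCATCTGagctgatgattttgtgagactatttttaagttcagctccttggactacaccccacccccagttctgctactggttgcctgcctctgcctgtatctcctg
Phkg1 promoter, chr5:129879089-129879338, minus strand: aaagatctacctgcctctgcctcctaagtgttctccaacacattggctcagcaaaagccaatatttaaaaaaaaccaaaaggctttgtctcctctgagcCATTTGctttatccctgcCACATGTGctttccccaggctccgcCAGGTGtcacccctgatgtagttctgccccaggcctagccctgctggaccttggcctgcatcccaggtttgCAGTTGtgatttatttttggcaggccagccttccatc
Pygm promoter, chr19:6384158-6384407, plus strand: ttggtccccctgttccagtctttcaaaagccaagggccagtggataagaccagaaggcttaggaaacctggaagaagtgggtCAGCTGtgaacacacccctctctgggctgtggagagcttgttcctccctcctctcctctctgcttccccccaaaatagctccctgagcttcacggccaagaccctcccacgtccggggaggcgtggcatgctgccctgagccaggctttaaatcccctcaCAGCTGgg
Fbp2 promoter, chr13:62858401-62858650, minus strand: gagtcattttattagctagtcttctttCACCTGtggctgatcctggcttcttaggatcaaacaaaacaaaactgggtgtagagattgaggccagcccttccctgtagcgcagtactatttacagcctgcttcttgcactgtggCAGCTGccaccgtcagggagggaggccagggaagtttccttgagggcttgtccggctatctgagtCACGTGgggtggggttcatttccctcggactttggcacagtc

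At least 1 E-box was present in each of these 5 windows, in 9 of 10 muscle isoforms with a promoter entry and in 24 of 32 members, against 66.2% of 32851 promoters of the same length. In these and the next counts a member is counted once, by its first listed start. The 32851 promoters hold every listed start of a gene, so the units differ. The form CAGCTG was found in 5 of 10 muscle isoforms and 6 of 32 members, against 13% of promoters. *Fbp2* holds 3 E-boxes, at 223, 107 and 42 bases before the start (first base of the motif), and the last of them, CACGTG, contains the hypoxia core ACGTG. That core, searched on both strands, was found in 14 of 32 members and 4 of 10 muscle isoforms, against 16.6% of promoters, and TATAAA in 2 and 0, against 12.4%. A match is a description of letters in the window and says nothing of binding.

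Isoforms of the same enzyme were compared by the difference of their log2 signals on each array, which asks whether they changed unequally. Of 14 pairs fixed for this purpose 12 had both genes on the array and 10 had both detected on every array, and p-values were adjusted over the 12. The change of muscle enolase lay below that of neuron-specific enolase. *Eno3* minus *Eno2* was 0.51, 0.40 and -0.95 in WT and -1.30, -1.03 and -1.01 in *Cmah*-null samples. The groups did not overlap, with WT replicate 3 only just above, and the means differed by -1.10 (SE 0.48, exact permutation p = 0.1, adjusted p = 0.4). *Pfkp* minus *Pfkl* differed by -0.58 (SE 0.26, exact permutation p = 0.1, adjusted p = 0.4), again without overlap but with WT replicate 3 and *Cmah*-null replicate 2 both at -1.92 after rounding. *Fbp2* minus *Fbp1* and *Slc16a3* minus *Slc16a1* are given no value, since *Fbp1* and *Slc16a1* were not detected on every array.

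With 3 arrays against 3 the smallest 2-sided exact p is 0.1, so no pair could pass 0.05. *Slc2a4* minus *Slc2a1* differed by -1.26 (SE 0.60) with overlapping groups (exact permutation p = 0.2). *Pgam2* minus *Pgam1* differed by -0.72 (SE 0.48), and *Eno3* minus *Eno1* by -0.78 (SE 0.69), each with an exact permutation p of 0.3. *Pygm* minus *Pygb* differed by -0.05 (SE 0.86), where *Cmah*-null replicate 3 stood at 1.11 and the other *Cmah*-null values at -0.76 and -0.85. *Pfkm* minus *Pfkl* differed by 0.16 (SE 0.17), and by -0.38 where the mean of all probes of a gene was used. *Aldoc* minus *Aldoa* differed by 0.10 (SE 0.50), *Eno2* minus *Eno1* by 0.33 (SE 0.77) and *Slc2a3* minus *Slc2a1* by -0.73 (SE 0.56). Within the set of arrays with more beads *Eno3* minus *Eno1* differed by 0.15 and *Pygm* minus *Pygb* by 1.5. No pair was shown to change unequally.

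**Figure D4:**
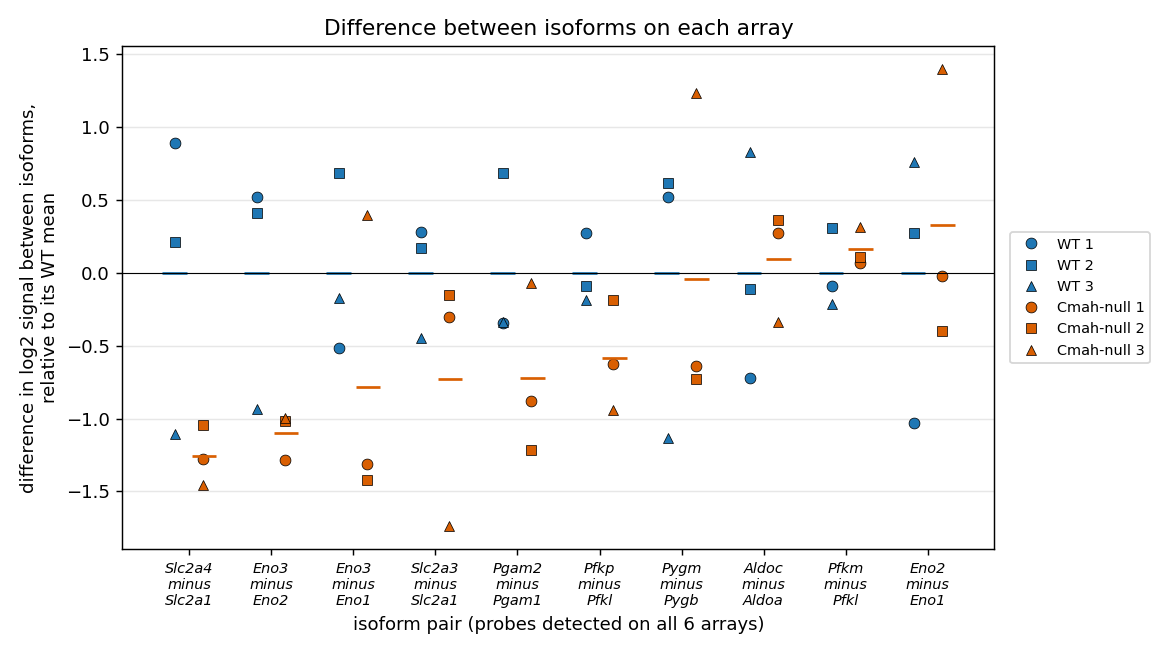
Difference in log2 signal between isoforms on each array, relative to the WT mean of that pair (y axis), for the 10 pairs with both probes detected on all 6 arrays (x axis). Markers are arrays, with circle, square and triangle for replicates 1, 2 and 3, and short lines are group means of 3. Only *Eno3* minus *Eno2* and *Pfkp* minus *Pfkl* separate the colours.

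Other genes of glucose and glycogen metabolism were read from a list of 63, of which 58 were found and 39 detected on all 6 arrays. Of the 39, 25 changes lay below 0 and 14 above, with a median of -0.17. Of the 58, 2 were called lower and 1 higher, beside the 1.41% and 1.3% of all probes given above. *Gyg*, glycogenin, the protein primer on which glycogen is built, had log2 signals of 10.81, 10.60 and 9.96 in WT and 9.76, 9.62 and 9.83 in *Cmah*-null samples, a change of -0.72 (SE 0.23). *Gpd2*, the mitochondrial glycerol phosphate dehydrogenase that passes electrons from glycolysis to the respiratory chain, had 12.27, 11.90 and 11.56 in WT and 10.62, 10.84 and 11.41 in *Cmah*-null samples, a change of -0.95 (SE 0.27). Neither overlapped between groups. *Slc16a8* (MCT3), a lactate transporter best known from the retinal pigment epithelium and choroid plexus, had 7.37, 7.58 and 7.36 in WT and 8.05, 8.03 and 8.32 in *Cmah*-null samples, a change of 0.70 (SE 0.12), detected on 1 WT and 3 *Cmah*-null arrays. Their adjusted p-values were 0.527, 0.479 and 0.379 in limma. Among all 58, 10 were lower and 2 higher without overlap, against the 7.33% and 9.11% of all probes.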

How the data were processed

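Cochlear RNA of 3 WT and 3 *Cmah*-null samples was measured, 1 array each. The authors deposited raw intensity values (average bead signal, linear, not background-subtracted) with bead numbers and a detection p-value per probe, and a table of log2 values that equalled quantile-normalized log2 signals to within 5e-07. Its columns name the *Cmah*-null samples "old", and samples were matched by these names and numbers. The authors' fold changes, test statistics and adjusted p-values were not used. How probes were assigned to genes is not given in the sources used here.

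Genotypes were compared on the log2 values by the moderated test of limma 3.58.1 under R 4.3.3 (2-sided, without covariates, Benjamini-Hochberg over all 25697 probes) and isoform pairs with exact permutation tests. Genes named were members, other genes called and, for the marker lists shown, the 3 brightest markers. *Mb*, *Ttn*, *Prph*, *Ucp1*, *Ppargc1a*, *Otop1*, *Elovl3*, *Dio2* and *Prdm16* were added after their values were seen. The members, lists and alternatives were chosen with earlier results of these data known. The alternatives were neqc (offset 16), median scaling, removal of probes detected on fewer than 3 arrays, a replicate block, a bead block, a trend and robust prior, averaging *Cmah*-null replicates 1 and 2, all probes per gene, each array left out, and, chosen after seeing the data, detected members only. The fit was tested on simulated data. Python 3.11.15 with matplotlib 3.10.9 drew the figures. The number of arrays limits the precision.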

Additional observations from a re-analysis of the deposited data

How the results depend on the processing

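Each genotype had 3 arrays, values differed between replicates for muscle isoforms and for other members, and the calls moved with the scaling. With a replicate block the members called lower numbered 1 (*Fbp2*), against 1.6% of all probes. Of the 58 other glucose and glycogen genes 5 were called in either direction, against 1.6% lower and 1.56% higher of all probes. Deviations of same-numbered arrays correlated at 0.02, -0.17 and 0.01, within the range of -0.17 to 0.17 over all pairs of a WT and a *Cmah*-null array. These values showed no pairing by replicate number, but with 3 arrays per genotype they cannot exclude one. With neqc normalization 1 member was called lower and 2 higher (2.72% and 3.05% of all probes) and 6 other genes were called. With a trend and robust prior 4 members were called lower (*Eno3*, *Fbp2*, *Pfkp* and *Pgm2*), against 1.64% of all probes. With a bead block 6 were called lower (*Eno1*, *Fbp2*, *Hk1*, *Ldha*, *Pfkp* and *Tpi1*), against 3.4% of all probes. Of the 58 other genes 7 were called in either direction, against 3.4% lower and 3.33% higher of all probes. With that block the sign turned for *Phka1* (0.07), *Slc2a3* (-0.06) and *Pygm* minus *Pygb* (0.14). With median scaling 0 members were called lower and 2 higher (0.307% and 9.37% of all probes). In that setting 1 member was lower without overlap. The share of all probes without overlap was not computed there, so that count says nothing about the members. The median of the neural isoforms was 0.25 with this scaling. The sign turned for *Pfkm* (0.41), *Pygm* (0.17), *Phka1* (0.03), *Aldoc* (0.28), *Pygb* (0.22), *Pfkl* (0.33), *Aldoa* (0.21), *Gapdh* (0.26), *Eno1* (0.28) and *Pkm2* (0.13), where the median of the detected probes itself lay at 0.30. With *Cmah*-null replicates 1 and 2 averaged the sign turned for *Pfkm* (0.03), *Phka1* (0.04), *Slc2a3* (-0.03), *Aldoc* minus *Aldoa* (-0.01) and *Pygm* minus *Pygb* (0.27). With the mean of all probes *Pfkm* minus *Pfkl* was -0.38. The cause of these moves was not tested.

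Leaving out each array in turn gave 1 to 12 members called lower, against 0.926% to 2.04% of all probes, and 0 to 1 called higher, against 0.743% to 2%. The 12 of 34 were reached without WT replicate 3, where 2.04% of all probes were called lower. The same removals gave 4 to 13 members lower without overlap and 3 to 7 higher without overlap. Of the 58 other genes 2 to 8 were called in either direction. The 8 were also reached without WT replicate 3, where 2.04% of all probes were called lower and 2% higher. The 13 were reached without WT replicate 3, against 12.6% of all probes, and the 7 without WT replicate 1, against 16.5%. The changes that turned sign ran from -0.21 to 0.12 for *Pfkm*, -0.91 to 0.08 for *Pygm*, -0.63 to 0.09 for *Aldoa*, -0.66 to 0.14 for *Gapdh*, -0.57 to 0.40 for *Eno1*, -0.04 to 0.01 for *Slc16a3*, -0.78 to 0.12 for *Phka1*, -0.05 to 0.24 for *Slc2a3*, -0.05 to 0.43 for *Pgam1* and -0.33 to 0.11 for *Aldoc*. The pair differences that turned ran from -0.26 to 0.51 for *Aldoc* minus *Aldoa*, -0.21 to 0.71 for *Eno2* minus *Eno1* and -0.69 to 0.30 for *Pygm* minus *Pygb*. *Fbp2* stayed between -0.96 and -0.85.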
